A study of Mus musculus with 4 samples.

Results

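Of the 54309 CTCF peaks called in heart from both pools of mice, 10614 had a summit in repeated sequence away from promoters, 19.5% (95% exact binomial interval 19.2 to 19.9). These are the peaks described here. A peak was taken when its summit base is soft-masked, that is, written in lower case in the reference genome, and lies more than 1 kb from every annotated transcription start site (TSS). They were 24.5% (24.1 to 25) of the 43237 peaks beyond 1 kb of a TSS. The other 32623 distal peaks, whose summits are not soft-masked, and the 11072 peaks within 1 kb of a TSS serve for comparison. Intervals in the text are exact binomial 95% intervals and cover counting error over peaks, genes or sequence copies only. Peaks are not replicates, so shares and medians are given as descriptions without tests.

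Binding was mapped by chromatin immunoprecipitation and sequencing with an antibody against CTCF. The tissue was heart of adult female B6CASTF1/J mice, 2 months old, the first-generation cross of C57BL/6J and CAST/EiJ. Pool G and pool H each joined 2 heart biosamples and were sequenced as 2 technical libraries, so the 4 libraries hold 2 biological replicates of 1 untreated condition. Read depth is unknown, because the peak lists hold no read totals. Signal here is the score of the peak caller as deposited; it has no stated unit and is compared only within a list. A peak's pool G and pool H values are therefore set side by side only to show whether a pattern is present in both.

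CTCF is a protein with a row of zinc fingers that reads a long DNA motif and, together with the cohesin ring, holds the bases of chromatin loops. In rodents the B2 group of short interspersed elements is known to carry a sequence close to the CTCF motif, and copies of it have spread CTCF sites through the genome.

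The label of repeat rests on the mask alone. The sources used here do not give the program behind the mask, no repeat annotation was at hand, and so no peak is assigned to a named repeat. Another mask of mm10 may mark other bases, and the number of peaks taken could then differ. The median soft-masked block of the whole genome is 29 bases long and the shortest is 19, and 34.3% of the sequence is soft-masked. Blocks at the summits were longer, with a median of 75 bases, quartiles of 34 and 178, and a range of 19 to 7505. Still, 36.7% of the summits lay in a block under 50 bases. In the summit base and the 50 on either side of it, the median 14-base word occurred 77 times in the genome (median over the peaks), against 31.5 times for the other distal peaks. By this count, too, the sequence was more repeated than at the other distal peaks. At summits in blocks under 50 bases the median was lower, 44.5 times. Mask and count read the same bases and the program behind the mask is unknown. The count is therefore no separate support for the label.

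Most of these sites shared a single 12-base word of the CTCF motif. The central 12 bases of the motif, here called the CTCF core, were searched on both strands within 100 bp of each summit; the core leaves some positions open and so stands for 32 exact words. The word CCAGAAGAGGGC is 1 of them and stood at 5697 of the 10614 summits. The strongest peak with this word was taken from each of 3 classes, together with the strongest peak that carries another exact word. The classes are a short match to the largest sequence group, to the second one, or to neither, as described below. The first 3 are shown for the sequence around the same word, and the last for comparison with another word. Each is read on the strand of the core, 5′ to 3′ on mm10, with the core in capitals.
Near Tango6, chr8:106699690-106699841, plus strand: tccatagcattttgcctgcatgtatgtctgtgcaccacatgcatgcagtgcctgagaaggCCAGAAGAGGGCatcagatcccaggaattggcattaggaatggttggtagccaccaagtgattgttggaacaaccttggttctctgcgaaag
Near Pelp1, chr11:70414097-70414248, plus strand: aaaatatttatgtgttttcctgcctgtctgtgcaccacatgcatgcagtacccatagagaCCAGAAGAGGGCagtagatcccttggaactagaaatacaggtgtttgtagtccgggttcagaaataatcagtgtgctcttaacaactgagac
Near D030056L22Rik, chr19:18716496-18716647, minus strand: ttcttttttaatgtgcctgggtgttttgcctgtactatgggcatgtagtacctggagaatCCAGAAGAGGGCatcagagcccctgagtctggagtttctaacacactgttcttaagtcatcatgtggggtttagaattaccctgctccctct
Near Abr, chr11:76456361-76456512, plus strand: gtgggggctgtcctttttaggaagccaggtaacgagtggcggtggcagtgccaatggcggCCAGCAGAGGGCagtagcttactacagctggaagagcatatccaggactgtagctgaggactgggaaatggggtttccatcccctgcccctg

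The sequences near Tango6 and Pelp1 share an unbroken run of 25 bases before the core, tgtctgtgcaccacatgcatgcagt, and hold the same base at 51.3% of 152 positions with the cores aligned. The sequence near D030056L22Rik held the same base as the one near Tango6 at 42.1% of positions, and the one near Abr at 36.2%. The Tango6 site lies in an intron in a soft-masked block of 84 bases and had a signal of 811 (pool G value 439, pool H value 374). The Pelp1 site is intergenic in a block of 97 bases and had a signal of 835 (439 and 400). The D030056L22Rik site is intronic in a block of 33 bases, with a signal of 842 (447 and 400). The Abr site, also intronic, lies in a block of 21 bases and had the highest signal of all 10614 peaks, 863 (456 and 409).

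Peaks in soft-masked sequence were weaker than other distal peaks in both pools. Their median signal was 169 (quartiles 109 and 318), against 377 (159 and 633) for the other distal peaks, a log2 difference of -1.16. The pool G list had medians of 96.5 and 195, the pool H list of 79.7 and 175. The list median of all peaks, 286, was reached by 28.4% of the soft-masked peaks and by 58.4% of the other distal ones. The soft-masked peaks made up 29.3% (28.1 to 30.5) of all peaks in the lowest of 10 equal bins by signal and 30.5% in the next, and then fell in every bin to 4.62% (4.08 to 5.21) in the highest. The histogram of signals shows 2 humps for the other distal peaks and only the low one for the soft-masked peaks, in the conservative list and in the values of each pool.

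**Figure D1:**
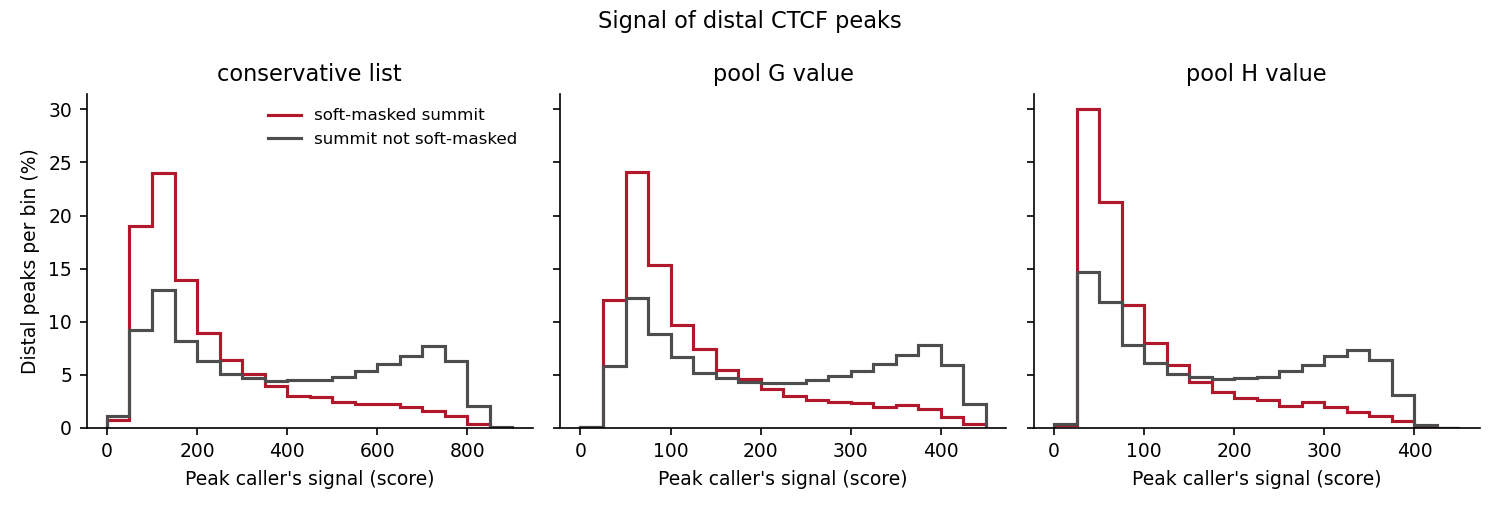
Signal of distal CTCF peaks in the conservative list (left) and the value of the matched peak in pool G (middle) and pool H (right). The x axis is the peak caller's score, the y axis the percentage of peaks per bin, in red for peaks with a soft-masked summit and in grey for the others; the red line lies above the grey one at low scores and below it at high scores in all 3 panels.

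Soft-masked peaks were also called a little less often in each pool's own list. Of the 10614, 88.0% had a summit within 100 bp in the pool G list, 84.3% in the pool H list, 79.7% in both and 7.37% in neither. Of the other distal peaks, 91.6%, 89.8%, 85.7% and 4.32% did. The conservative list was itself selected on how well both pools matched, which these shares cannot test. Where both pools gave a value, 27 of 10522 soft-masked peaks departed from the common pool ratio by more than 2-fold, 0.257% (0.169 to 0.373), against 0.403% of all conservative peaks. Of the 27, 25 were relatively higher in pool G and 2 in pool H, and over all conservative peaks the split was 189 and 27. The median ratio of the pool G to the pool H value was 1.29 at the soft-masked peaks, 1.21 at the other distal peaks and 1.23 over all peaks.

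The CTCF core was found at most soft-masked summits. With at most 1 mismatch it occurred within 100 bp of 9735 of 10614 summits, 91.7% (91.2 to 92.2), against 66.0% of all conservative peaks, 65.4% of the other distal peaks and 43.3% of the peaks near a TSS. In windows 1 kb away from the same soft-masked summits the share was 6.49%. Cores were centred at a median distance of 7.5 bp from their summits, and 89.0% of the cores lay within 20 bp. The word CCAGAAGAGGGC alone accounted for 53.7% (52.7 to 54.6) of the soft-masked peaks, against 12.4% of all peaks and 1.39% of the other distal peaks. The rule and these counts are linked: the summit tends to sit on the core, and a word that is common in the genome tends to be soft-masked. The shares therefore describe the peaks and are no test of them.

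The word at the summit went with different signals. Peaks with CCAGAAGAGGGC had a median signal of 161 (quartiles 107 and 286), the 1811 with another exact word 232 (127 and 474), the 2227 with a core of 1 mismatch 175 (106 and 337), and the 879 with no core 138 (92.7 and 244). The order of the first and second was the same in both pools, with pool G medians of 92.0 and 131 and pool H medians of 67.7 and 100. Among the other distal peaks, the 454 with CCAGAAGAGGGC had a median of 171, close to that of the soft-masked peaks with the same word. Other distal peaks with another exact word reached 583. Only 19 distal copies of the first word outside soft-masked sequence were bound, so most of the 454 peaks lay near a soft-masked copy. Their median therefore does not describe this word outside repeated sequence. The second most common word, CCAGCAGAGGGC, was carried by 394 soft-masked peaks with a median of 309. CCACTAGAGGGC was carried by only 62, with the highest median of the 10 most common words, 645 (435 and 722).

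Copies of these words were also bound at different rates. A copy counted as soft-masked only when all 12 of its bases were. Copies called outside soft-masked sequence therefore include any that were soft-masked in part. Soft-masked copies of CCAGAAGAGGGC more than 1 kb from a TSS numbered 46731, and 6172 of them, 13.2% (12.9 to 13.5), had a conservative summit within 100 bp (12.9% by the list of pool G, 11.9% by that of pool H). CCAGCAGAGGGC had far fewer soft-masked copies, 818, of which 56.7% (53.2 to 60.2) were bound, and its 984 copies outside soft-masked sequence were bound at 55.2%. CCACTAGAGGGC was bound at 53.4% of 131 soft-masked copies (44.5 to 62.2) and at 83.4% of 566 others. CCACAAGGTGGC showed a wider gap, with 19.2% of 712 soft-masked copies (16.4 to 22.3) and 54.6% of 568 others. For CCAGAAGAGGGC itself only 195 distal copies lay outside soft-masked sequence, and 9.74% (5.97 to 14.8) of them were bound, which does not differ from the soft-masked share beyond counting error.

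The bases around the word, near and far, went with differences in binding. The published CTCF motif usually continues with a G before the core and a C at the second base after it, and both bases were tabulated. Among soft-masked copies of CCAGAAGAGGGC with G before the core and C at the second base after it, 52.0% (50 to 54.0) of 2375 were bound. With G and T the share was 28.2% of 6356, with A and C 29.5% of 1698, and with A and T, by far the most frequent pair, 5.51% (5.23 to 5.81) of 24969. With T before the core the share was 34.8% of 925 with C and 3.34% with T, and with C before it 30.2% of 162 with C and 2.58% of 2093 with T. In the pool G list the first 4 shares were 50.7%, 27.1%, 27.7% and 5.41%, and those of the pool H list 50.3%, 26%, 25.4% and 4.54%. The bound copies of these 4 pairs had median signals of 216 (quartiles 134 and 389) for G and C, 173 for G and T, 158 for A and C, and 116 (90.9 and 163) for A and T. Contrasts of this kind were not limited to these bases or to the motif's own letters. At the second base after the core, G went with 42.9% (39.7 to 46.0) of 975 copies, close to the 40.8% (39.5 to 42.2) with C. Far from the core, 14 bases before it, the share was 44.2% with A and 7.85% with T, and 19 bases before it 39.3% with C and 7.05% with G. Bases at different positions are not independent among related copies, so these shares do not single out a position.

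Differences by 1 base could be followed in the word extended by 4 bases on either side. All copies were read from the reference genome, and bases at which the strains of the cross may differ were not examined. There were 47 such 20-base words with at least 100 soft-masked copies, which together held 32115 copies, 68.7% of all. Bound shares ran from 0.826% to 67.2%, with 18 words under 5% and 12 over 30%. Positions are counted from 1 at the 5′ end of the 20-base word, so that the core fills positions 5 to 16, and changes are given relative to the most frequent word. The words shown are that word, the same with a C at position 18, a pair that differ only there, and the word with the highest share.
Most frequent word: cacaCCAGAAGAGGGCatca
T18C: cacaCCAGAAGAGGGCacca
A4T A17G: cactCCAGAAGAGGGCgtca
A4T A17G T18C: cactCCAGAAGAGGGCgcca
C3G A4G T18C: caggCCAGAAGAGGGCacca

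The most frequent word was bound at 316 of 9881 copies, 3.20% (2.86 to 3.56). With T18C as its only change, 20.6% (17 to 24.5) of 467 copies were bound. The word with A4T and A17G was bound at 1.19% (0.75 to 1.80) of 1843 copies, and with T18C added at 41.8% (37.1 to 46.6) of 433, a 35-fold ratio. The flanks of this pair were about equally close to the majority sequence, with a median identity of 92.5% and 90%. The share of unique surroundings was also nearly the same, a mean of 2.98 and 3.07 of 6 words (both measures are defined below). The flanks were not compared with each other, so whether the pair also differs at other positions was not tested. The pool G shares of the pair were 1.57% and 43.4% and the pool H shares 0.868% and 38.8%. The highest share, 67.2% (61.1 to 72.9) of 256 copies, belonged to the word with C3G, A4G and T18C, which was bound at 65.2% in pool G and 68.4% in pool H.

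Across all pairs of these words that differ by T18C alone, the word with the change was bound more often in 8 of 8 pairs, by 1.54-fold to 35-fold. The intervals of the 2 words did not overlap in any of the 8, and the direction was the same in 8 of 8 pairs in the list of either pool. For A4G, the change to G just before the core, the share was higher in 3 of 3 pairs, with the intervals apart in 2. In those 2 pairs the words with the change also had flanks less like the majority sequence and more unique surroundings. In the other pair, with equal median identity of the flanks, the shares were 35.1% without the change and 35.4% with it. A4T went with a lower share in 5 of 5 pairs, with the intervals apart in 3. In all 5 the words with the change also had flanks more like the majority sequence and less unique surroundings. For A17G, at the first base after the core, the share was higher in 5 of 8 pairs, so no single direction held over all pairs. The intervals were apart in 2, both with T18C present, and there the share was higher with the change. It was 12.1% without and 41.8% with A17G in one, and 37.6% and 58.4% in the other. In the pairs with a lower share the intervals overlapped. Pairs share words and are not independent. Over all 47 words, the pool G share was the higher in 36 and the pool H share in 6, with a difference of at most 4.90 percentage points.

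**Figure D2:**
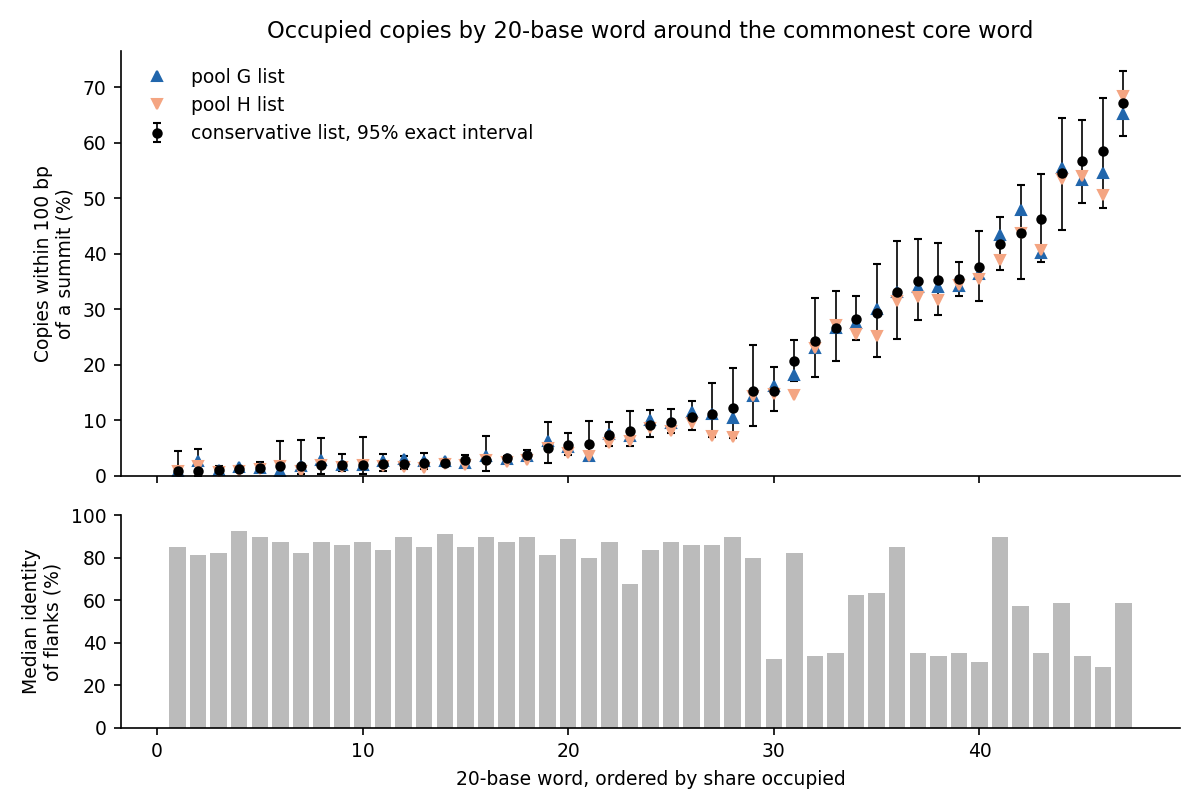
Share of soft-masked distal copies within 100 bp of a summit for each of the 47 words of 20 bases, ordered along the x axis by that share (top; black points with 95% exact intervals for the conservative list, triangles for each pool's list), and the median identity of their flanks to the majority base in percent (bottom). The pool values follow the black points from 0.826% to 67.2%, and words with low identity are found mostly on the right.

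Copies whose flanks differed more from the majority sequence were bound more often. For every copy of CCAGAAGAGGGC, the 40 bases on either side of the core were compared with the most frequent base at each position over all copies. The median identity was 40.0% (quartiles 32.5 and 67.5) at bound copies and 83.8% (62.5 and 90) at unbound ones. Of 10841 copies under 50% identity, 33.2% (32.3 to 34.1) were bound, and of 12499 copies at 90% or more, 3.58% (3.26 to 3.92). Bases were compared position by position, so an inserted or lost base lowers the identity of a copy; this was not tested.

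Copies in repeated surroundings are also places where reads are harder to place. To describe this, 6 words of 32 bases, centred at 50, 100 and 150 bp on either side of each site, were counted in the genome, and the number that occurs only once was taken. The bound share rose from 0.318% (0.0386 to 1.15) of 628 copies with 0 unique words to 31.6% (30.6 to 32.5) of 9613 copies with all 6. Identity and uniqueness moved together, so the share was also read at equal uniqueness. Among copies with all 6 words unique, 36.5% (35.4 to 37.7) were bound at under 50% identity, 26.9% at 50 to under 70%, 10.3% at 70 to under 90%, and 11% (7.22 to 15.8) of 228 copies at 90% or more. The intervals of the last 2 shares overlap. These words lie outside most of the bases over which identity is measured, so near surroundings of such copies can still be repeated, and the part of read placement in these shares was not tested. With A before the core and T at the second base after it, copies with at least 5 unique words were bound at 8.76%, and with G and C at 53.4%, the same order as over all copies.

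**Figure D3:**
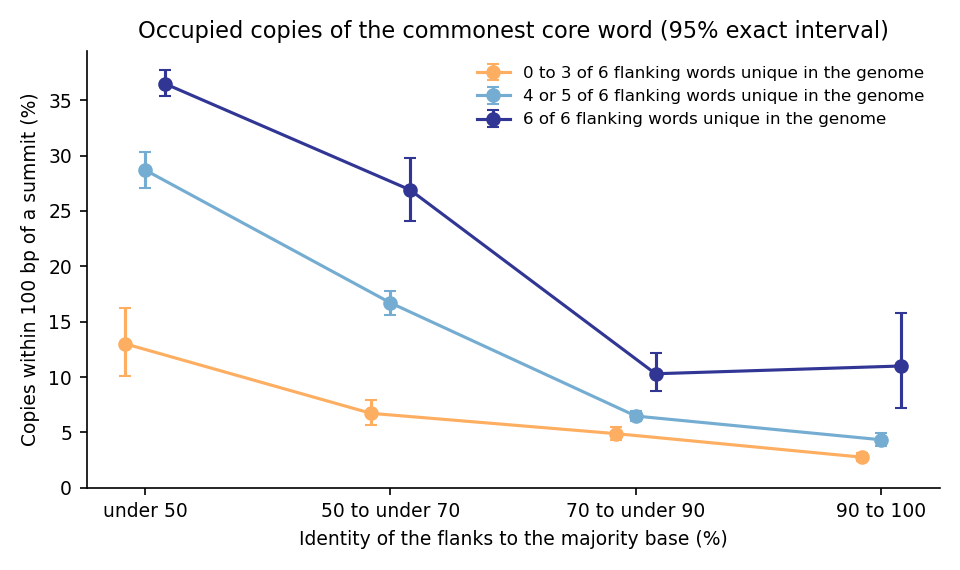
Share of soft-masked distal copies of the commonest core word that lie within 100 bp of a conservative summit (y axis, percent, with 95% exact intervals) by identity of their flanks to the majority base (x axis, percent), in copies with 0 to 3, with 4 or 5 and with 6 unique flanking words. The share falls over the first 3 identity bins in each class, from 36.5% to 10.3% where all 6 words are unique, and at each identity it is highest in that class.

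Signal at the peaks fell with the length of the soft-masked block. The median was 226 in blocks under 50 bases, 191 in blocks of 50 to under 100, 149 in blocks of 100 to under 200 and 124 in blocks of 200 or more. The pool G medians were 129, 107, 85.5 and 72.4 and the pool H medians 98.5, 82.1, 63.4 and 51.6. The word CCAGAAGAGGGC became more common along the same order, from 35.1% to 74.7% of the peaks, and the mean number of unique words fell from 5.71 to 4.15 of 6. Among peaks with all 6 words unique, the medians were 231, 195, 162 and 144. All 6 were unique at 58.2% (57.3 to 59.2) of the soft-masked peaks and at 88.4% of the other distal peaks, and among these the median signals were 199 and 389.

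**Figure D4:**
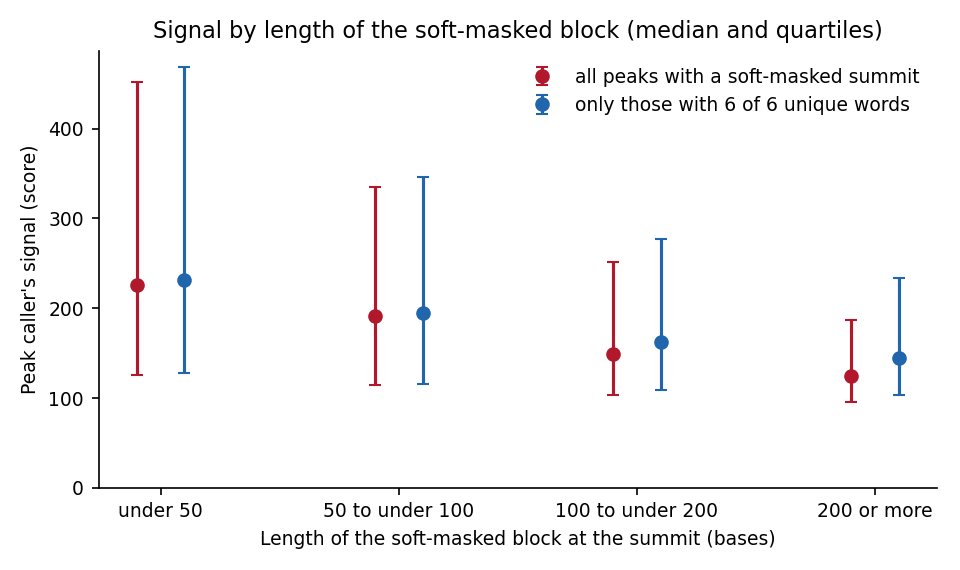
Signal of peaks with a soft-masked summit (y axis, the peak caller's score; points are medians, bars the quartiles) by length of the soft-masked block at the summit (x axis, bases). The medians fall from 226 to 124 over all peaks (red) and from 231 to 144 over those with 6 of 6 unique words (blue), with quartile ranges that overlap.

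Groups of similar sequence were built from the peaks themselves, since no repeat annotation was at hand. The largest group took 3594 peaks, or 33.9% (33.0 to 34.8), which matched 1 consensus of 175 bases at 70% identity or more over at least 60 bases, with a median identity of 84.1%. In this group 99.5% held the core and 76.8% the word CCAGAAGAGGGC, the median block was 192 bases and the median signal 136 (quartiles 99.8 and 226; pool G 79.9, pool H 57.7). The other 11 groups held 60 to 401 peaks each, with median signals of 106 to 202. The lowest of these medians belonged to the fifth group, of 295 peaks, in which 91.5% carried CCAGAAGAGGGC and the median 14-base word around the summit occurred 2397 times in the genome. No group took up 4709 peaks, 44.4% (43.4 to 45.3). These had short blocks, of 35 bases at the median, less often the word, 31.3%, and a median signal of 211 (120 and 408), above that of each group. With any match of at least 30 bases to the consensus of the largest or the second group, the criterion used to choose the sequences shown, 36.7% of the peaks went to the largest (median signal 133), 26.2% to the second (184) and 37.1% to neither (217). Of the other distal peaks, 0.782% matched the first and 1.21% the second. Both consensus sequences were built from soft-masked peaks only, so this difference follows in part from how they were made and is no test.

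Chromosomes differed more in soft-masked peaks than in other distal peaks. Per Mb of soft-masked distal sequence there were 12.6 soft-masked peaks over the genome, and per Mb of unmasked distal sequence 20.9 other peaks. Chromosome 11 was highest in both, with 25.8 and 29.4, and chromosome X lowest, with 3.83 and 11.8, so the ratio of the 2 densities ran from 0.324 on X to 0.877 on chromosome 11. The number of CCAGAAGAGGGC copies moved alongside, at 25.6 per Mb of soft-masked distal sequence on X and 109 on chromosome 11. The share of copies bound differed less, 9.32% (8.05 to 10.7) on X and 14.5% (13.4 to 15.6) on chromosome 11, and was 10.3% to 15.7% on the autosomes. The median signal of soft-masked peaks was 198 on X, the highest of all chromosomes, and 157 to 183 on the autosomes. That of the other distal peaks was 334 on X, the lowest of all chromosomes, and 341 to 424 on the autosomes.

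**Figure D5:**
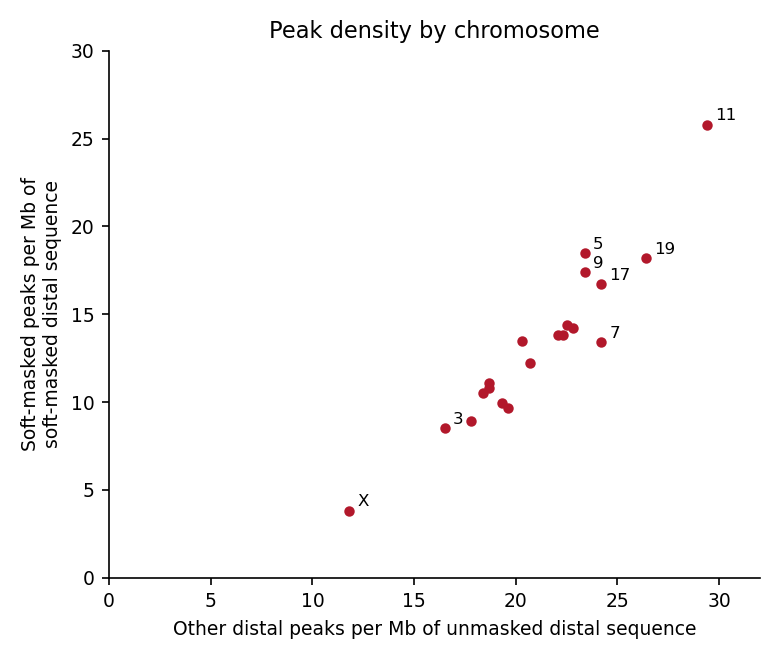
Peak density by chromosome. The x axis gives other distal peaks per Mb of unmasked distal sequence, the y axis soft-masked peaks per Mb of soft-masked distal sequence; each point is 1 chromosome, with some labelled. Chromosome X is lowest on both axes (11.8 and 3.83) and chromosome 11 highest (29.4 and 25.8).

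Soft-masked peaks lay closer to genes than other distal peaks did. The nearest TSS was 8.12 kb away at the median (quartiles 3.60 and 17.7), against 10.2 kb (4.19 and 23.4). Gene bodies held 62.4% (61.5 to 63.3) of them and introns alone 58.8%, against 56.3% and 49.4% of the other distal peaks. Exons held 3.61% against 6.94%. Their median signal was 176 in exons, 165 in introns and 175 between genes, a spread that is small beside the gap to the other distal peaks (350, 342 and 418). Copies of CCAGAAGAGGGC were bound more often near genes, 14.9% (14.3 to 15.5) at 1 to 5 kb from a TSS and 7.83% (6.31 to 9.60) beyond 100 kb.

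Within introns, the core of the soft-masked peaks leaned to the strand of the gene. Of 5169 with a core in an intron of 1 protein-coding gene, 53.1% (51.7 to 54.5) read on the gene's strand, against 47.9% (46.9 to 48.9) of 8909 other distal peaks. The lean was larger among copies of CCAGAAGAGGGC without a peak, 60.2% (59.5 to 60.9) of 19487 in gene bodies, than among bound copies, 55.3% (53.6 to 56.9) of 3513.

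Soft-masked peaks had a neighbour within 10 kb somewhat more often than other distal peaks, but one within 1 kb less often. The nearest conservative summit of any kind was 7.20 kb away at the median, against 8.32 kb, and 59.6% (58.7 to 60.5) had one within 10 kb, against 54.9%. Within 1 kb it was 7.30% against 9.52%. The nearest summit of the same kind was 33.8 kb away. Neighbouring soft-masked peaks with a core pointed the same way in 53.8% (50.8 to 56.7) of 1123 pairs under 10 kb apart and in 48.8% (47.2 to 50.5) of 3626 pairs 100 kb to 1 Mb apart. Pairs that point towards each other, the arrangement known from CTCF loops, made up 21.3% (18.9 to 23.8) and 26% (24.6 to 27.5), and pairs that point apart 24.9% and 25.2%.

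The densest run lay in Fry, on chromosome 5, which encodes a large protein that binds microtubules. Within 50 kb it held 8 soft-masked peaks, from 150414912 to 150456073, with signals of 88.4 to 630. The whole gene, 379 kb long, held 25, or 6.60 per 100 kb, with signals of 67.9 to 630 and a median of 154, beside 13 other distal peaks with a median of 391. Of the 25, 24 held the core, 13 the word CCAGAAGAGGGC and 5 belonged to the largest sequence group, and 18 were called in both pools' lists. Cores on the plus strand numbered 13. Of the 40 soft-masked copies of the word in Fry, 13 were bound, 32.5% (18.6 to 49.1). Flt1, the VEGF receptor of endothelium, lies on the same chromosome and held 10 soft-masked peaks in 164 kb, with signals of 61.8 to 223 and a median of 143, beside 6 other distal peaks with a median of 117. There, 7 of 11 copies were bound (30.8 to 89.1%). Both genes were picked for their number of peaks per length, so the counts are a description. More peaks in all were held by Gm20388, with 44 over a gene model of 4435 kb. In all, 4026 of 21755 protein-coding genes had at least 1 soft-masked peak in the body, 2702 had exactly 1 and 96 had 5 or more.

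Near genes of heart muscle cells, the share with a soft-masked peak could not be told from that of all genes. Within 10 kb of a TSS, at least 1 such peak lay at 4440 of 21728 protein-coding genes, 20.4% (19.9 to 21.0). Among sarcomere genes 7 of 22 had one, among genes of energy metabolism 7 of 19, among cardiac transcription factors 6 of 23 and among genes of excitation and calcium handling 4 of 22. Markers of smooth muscle and pericytes had 5 of 10, those of endothelium 4 of 12 and those of fibroblasts 3 of 12. Markers of neurons had 2 of 16, and immune and skeletal muscle markers 1 of 12 each. None of the 15 matched hepatocyte markers had one, which leaves an upper limit of 21.8%. CTCF and cohesin genes had 4 of 12. The interval of each of the 12 lists held the 20.4% of all genes, so with these list sizes no list stood apart.

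Signals near these genes spanned most of the range. Of the sarcomere genes, Tpm1, an alpha-tropomyosin, had a peak with a signal of 332 (pool G 192, pool H 145). It lay in an intron of the gene, 2.06 kb upstream of a TSS within it. Ldb3, a Z-disc protein, had one of 163 (74.2 and 88.0) in an intron, and Tcap, the titin cap, one of 164 (91.3 and 69.5). All 3 carried CCAGAAGAGGGC. Among transcription factors, an intron of Mef2c held a peak of 614 (345 and 270) in a block of only 19 bases, with another exact word, while Gata4 had 171 and Myocd, the coactivator of serum response factor, 121. Gja1, the gap junction protein connexin 43, had 87.7, Kcnq1, a potassium channel, 129, and Casq2, the cardiac calsequestrin, 196.

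The mitochondrial trifunctional protein offered a contrast between neighbours. Hadha, its alpha subunit, had a peak of 654 (331 and 326) 1.35 kb downstream of a TSS, and Hadhb, its beta subunit, one of 91.5 (51.4 and 37.3) 1.71 kb downstream of one. Both summits lay in introns and both carried CCAGAAGAGGGC. Acadm, of medium-chain fatty acid oxidation, had 85.9. Of other cell types, Cdh5, the endothelial cadherin, had a peak of 617 and Fbln1, a fibroblast matrix protein, one of 552. Myh11, smooth muscle myosin, had 61.6 and Ptprc, the leukocyte antigen CD45, had 2 peaks, of 187 and 217. Of the cohesin genes, introns of Smc3 held peaks of 143 and 291, and Wapl, the cohesin release factor, one of 79.5.

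Most of the strongest soft-masked peaks lay in short blocks and did not carry CCAGAAGAGGGC. The 10 highest signals ran from 830 to 863, and 8 of these peaks lay in blocks under 50 bases. Behind Abr came peaks near Nedd4, a ubiquitin ligase (848), and Ago2, of the microRNA pathway (845), both with another exact word. CCAGAAGAGGGC was carried by 2 of the 10, those near D030056L22Rik and Pelp1. The peak in an intron near Psma2, a proteasome subunit, reached 830 (439 and 385) with no core within 100 bp. At the edge of the rule, the 5 soft-masked peaks just beyond 1 kb of a TSS, at 1001 to 1006 bp, had signals of 71.4 to 518, and the 5 just inside, at 995 to 1000 bp, 81.0 to 362. The farthest, in Gpc6, lay 445 kb from a TSS with a signal of 103.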

How the data were processed

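The authors deposited 8 peak lists on mm10, per the labels, of which 6 were used: the conservative list, a second list of both pools, and the thresholded and ranked list of each pool. Per the deposited readme texts, lists were thresholded by the irreproducible discovery rate (IDR). The caller's signal and the scaled IDR (540 for 0.05, 830 for 0.01) are scores as deposited by the authors. Neither aligner nor peak caller is given in the sources used here, and a control alignment was not analysed here.

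Summits were the start plus the deposited summit offset, a distance in bases given in the lists. Soft-masking was read from the RefSeq GRCm38.p6 sequence and TSSs and genes from GENCODE M21. A pool value is that of the nearest ranked summit of the pool within 100 bp. The core was searched with at most 1 mismatch. Sequence groups were built greedily: the commonest 12-base word among unassigned windows of 201 bases, a majority consensus, and blastn hits of at least 70% identity over 60 bases. The least group size of 50, the limit of 12 groups and the blastn settings were set when this step was written, the last after a first build had been seen.

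The tools were blastn 2.17.0, matplotlib 3.10.9, pandas 2.3.3, scipy 1.17.1, numpy 2.4.6 and Python 3.11.15, and the core search and grouping were tested on simulated data. Of 188 listed genes, 187 matched the annotation. The members and gene lists were chosen with earlier results of these data known. Regions to be named were the 10 highest signals, the 3 highest of each sequence group and of the commonest word, the 3 nearest to and farthest from a TSS, the densest run within 50 kb, and up to 3 per gene list with a TSS at most 10 kb away; part of these are given. The 20-base words and their pairs, flanking bases, identity, uniqueness, block lengths, the 30-base match, and the genes with most peaks were looked at after seeing the data. Alternatives were other lists, a stricter IDR, distance and mask, and other windows. The labels do not say whether the pooled hearts came from separate animals.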

Additional observations from a re-analysis of the deposited data

How the results depend on the processing

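The number of soft-masked distal peaks was 10614 and was 6924 at 5 kb from a TSS and 3503 with 90% of the bases within 50 bp soft-masked; in the other lists and settings it was 9480 to 13391. The log2 difference in median signal from the other distal peaks, -1.16, was -1.01 in the pool G list and -1.33 with 90% masked, and it was negative in all 6 alternatives. The share with the core, 91.7%, was 90% in the pool G list, 97.8% with 90% masked, 90.4% within 50 bp and 70.7% with no mismatch. The share with CCAGAAGAGGGC, 53.7%, was 52.5% in pool G, 53.0% in pool H, 54.7% in the second list, 53.3% at an IDR of 0.01, 52.6% at 5 kb, 52.9% within 50 bp and 72.1% with 90% masked. The share in gene bodies, 62.4%, was 61.5% in pool H, 58.6% at 5 kb and 67.8% with 90% masked. The share with a neighbour within 10 kb, 59.6%, was 58.1% in pool H, 63.4% in the second list, 55.5% at 5 kb and 62.3% with 90% masked. The bound share of CCAGAAGAGGGC copies, 13.2%, was 11.9% in pool H, 16.9% in the second list and 12.2% at an IDR of 0.01. Among copies with at least 5 unique words it was 22.9% and among those under 70% identity 26.1%, both chosen after seeing the data. The share in the largest sequence group, 33.9%, was 32.7% in pool H, 37.1% in the second list, 31.1% at 5 kb, 71.4% with 90% masked, 28.8% at 80% identity and, chosen after seeing the data, 36.7% with any match of 30 bases. The share off the pool ratio, 0.257%, was 1.6% in the second list. The causes of these shifts were not tested, except that a stricter distance, mask, mismatch or identity leaves fewer peaks by construction.

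No paired analysis was possible because the lists hold a value per pool and none per library, so the technical replicate numbers that the pools share have no columns. With 1 list per pool, leaving out a pool is the other pool's list alone. Read depth is unknown, so the depth at which an unbound copy would have been seen cannot be given.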
